A study of Mus musculus with 12 samples.

Results

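The genes of coenzyme Q (ubiquinone) biosynthesis were described in cultured mouse dendritic cells (DCs) after knockdown of *Ppargc1b*, which encodes PGC-1β, a co-activator of transcription. Members were the rows of the gene count matrix whose symbol was *Coq2*, *Coq3*, *Coq4*, *Coq5*, *Coq6*, *Coq7*, *Coq8a*, *Coq8b*, *Coq9* or *Coq10b*, which gave 10 of 55471 genes, each with a single row. DCs were grown from C57BL/6 marrow with GM-CSF and carried a retroviral short hairpin RNA. The hairpin targeted *Ppargc1b* (sh*Ppargc1b*) or, in shControl, firefly luciferase, which mouse cells lack, and cells that displayed the vector's human CD8 were sorted. Cells of each kind were left unstimulated or were given interferon-β (IFN-β) for 6 h, so that 12 libraries fell into 4 groups of 3: shControl unstimulated, sh*Ppargc1b* unstimulated, shControl IFN-β and sh*Ppargc1b* IFN-β. A knockdown lowers the target without removing it, and the control cells also carried a retrovirus and a hairpin. The labels do not say whether the 3 libraries of a group came from separate mice or cultures, nor which hairpin was used, so p-values measure only the spread between these libraries.

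Coenzyme Q is a lipid of the inner mitochondrial membrane that carries electrons from complexes I and II and from several other dehydrogenases to complex III. It is built from a benzoquinone ring, which derives from tyrosine, and a polyprenyl tail, which derives from the mevalonate pathway. COQ2 joins the tail to the ring. COQ3, COQ5, COQ6 and COQ7 then modify the ring, together with COQ4 and COQ9, in a matrix-side assembly sometimes called complex Q. COQ8A and COQ8B are atypical kinase-like proteins that support this assembly, and COQ10B is a lipid-binding protein that is needed for coenzyme Q to work in respiration and not for making it. PGC-1 co-activators are known for raising the expression of respiratory genes.

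Libraries held 49919648 to 77726101 counts. The targeted gene checked the labels: *Ppargc1b* was at 34.5 ± 1.94 CPM (SD, n = 3; CPM is the count relative to the library's TMM-scaled total) in shControl and 19.4 ± 0.851 in sh*Ppargc1b* unstimulated DCs. The log2 fold change was -0.83 with an SE of 0.10 (adjusted p = 3.25e-05, by edgeR over all genes tested; under 0.05 is called). All log2 fold changes below carry the SE. With IFN-β the gene was at 27.8 ± 3.93 and 18.7 ± 2.83 CPM (log2 fold change -0.57 ± 0.11, adjusted p = 9.45e-04). No library of sh*Ppargc1b* reached the lowest shControl library of the same treatment (exact permutation p = 0.1 for each treatment, the smallest that 3 against 3 allows). All 9 dendritic markers were detected, with a summed level of 4648 to 6764 CPM, while *Flt3* was low at 1.45 to 3.81 CPM over all libraries and lymphocyte and erythroid markers summed to at most 1.05 CPM. With the knockdown, 4 of the 9 dendritic markers rose without IFN-β and 5 with it, and the summed level of 7 macrophage markers was lower in every sh*Ppargc1b* library than in the shControl libraries of the same treatment (1618 to 1634 against 1837 to 1882 CPM unstimulated, 1888 to 1928 against 2158 to 2255 CPM with IFN-β). The summed level of 7 neutrophil markers was 71.0 to 119.9 against 35.6 to 66.6 CPM unstimulated and 63.6 to 112.9 against 29.8 to 68.4 CPM with IFN-β, and 2 of the 7 rose under each treatment. Unstimulated, this sum was mostly *S100a8* (means of 61.3 against 34.5 CPM) and *S100a9* (25.9 against 15.6). *Cxcr2* (2.63 against 1.59) and *Camp* (0.85 against 0.49) were also higher. *Ly6g* (0.30 against 0.40), *Mpo* (0.22 against 0.41) and *Elane* (0.15 against 0.41) were near the floor and lower. Of 6 mast cell or basophil markers, which summed to 7.64 to 25.7 CPM, 2 rose under each treatment, and of 4 eosinophil markers 0 were called. Of the macrophage markers, 1 rose and 2 fell without IFN-β and 1 rose and 3 fell with it. The mean of *Mrc1* went from 306.7 in shControl to 107.5 CPM in sh*Ppargc1b* unstimulated, and from 256.9 to 96.2 CPM with IFN-β. Unstimulated *Mertk* went from 126.1 to 95.4 CPM. By contrast, unstimulated *Csf1r* was at 1226 and 1212, *Adgre1* at 152.8 and 162.3 and *Fcgr1* at 40.9 and 46.4 CPM, so the list did not move as a whole. The part of these marker differences in the results below was not tested, and in bulk RNA fewer cells of a type cannot be told apart from less RNA per cell.

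All 10 members were expressed and passed the filter on low counts, with 103 to 2541 counts per library. To compare genes with each other, CPM was divided by the length of the union of each gene's exons. On this scale shControl unstimulated DCs had most *Coq5*, the gene of the C-methyltransferase of the ring, at 6.04 ± 0.0617 CPM per kb (SD, n = 3), then *Coq10b* at 5.32 ± 0.335 and *Coq9* at 4.92 ± 0.106. Between *Coq10b* and *Coq9* the ranges of the libraries overlapped, so their order is not set. *Coq2* and *Coq3* followed at 2.60 each and overlapped, then *Coq8b* at 2.03 ± 0.0846. A step of 2.03-fold separated *Coq8b* from the lowest group, which held *Coq6* at 0.995, *Coq4* at 0.851, *Coq7* at 0.607 and *Coq8a* at 0.493 CPM per kb. The members thus spanned about an order of magnitude, and the same 4 genes were the lowest in every group.

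**Figure D1:**
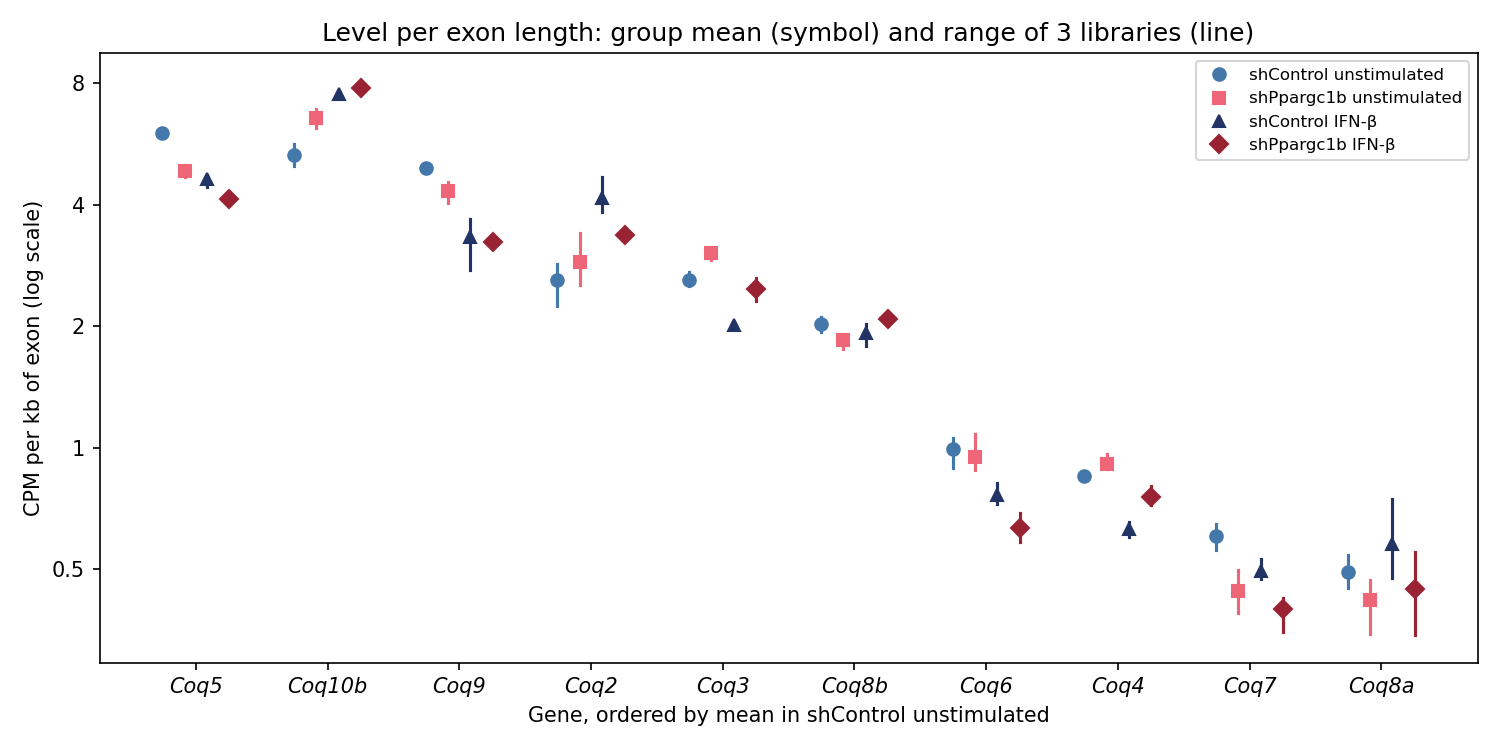
Level of each coenzyme Q gene in CPM per kb of exon (log axis), as the group mean (symbol) and the range of 3 libraries (line) in the 4 groups. *Coq5* led in shControl unstimulated DCs and *Coq10b* in the other 3 groups, while *Coq6*, *Coq4*, *Coq7* and *Coq8a* were lowest throughout.

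In the other 3 groups *Coq10b* was first, at 6.55 ± 0.357 CPM per kb in sh*Ppargc1b* unstimulated, 7.52 ± 0.0706 in shControl IFN-β and 7.77 ± 0.303 in sh*Ppargc1b* IFN-β DCs. Its ranges did not overlap those of the next gene, *Coq5*, in any of these groups. *Coq2* moved up to the third place in both IFN-β groups, at 4.16 ± 0.468 CPM per kb in shControl, where its range overlapped that of *Coq5*, and at 3.37 ± 0.0854 in sh*Ppargc1b*. At the low end, *Coq7* and *Coq8a* overlapped in the sh*Ppargc1b* unstimulated group and in both IFN-β groups. These levels rest on the exon length used, since dividing by the longest transcript instead changed 25 of the 40 ranks of genes within groups. On that scale *Coq10b* was first in all 4 groups, also in shControl unstimulated DCs (12.1 against 8.99 CPM per kb for *Coq5*), so that the top place of *Coq5* there holds for the exon union alone. *Coq2* by the longest transcript went from rank 5 to rank 3 with IFN-β in shControl and stayed at rank 4 in sh*Ppargc1b* DCs.

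In GRCm38 the genes of ring modification lie at chr4:21879673-21912162 (*Coq3*, plus strand), chr5:115279666-115296972 (*Coq5*, plus), chr12:84361657-84373796 (*Coq6*, plus) and chr7:118509659-118533356 (*Coq7*, minus). *Coq2* lies at chr5:100654723-100675140 (minus), *Coq9* at chr8:94838321-94854895 (plus), *Coq8a* at chr1:180165238-180199602 (minus), *Coq8b* at chr7:27233023-27257950 (plus) and *Coq10b* at chr1:55052770-55072702 (plus). Exons of 6 members overlapped those of a neighbour, and whether counting used strand is not given in the sources used here. The largest overlap was at *Coq4*, which shared 27.1% of its 3399 exon bases (chr2:29787493-29797935, GRCm38) with the opposite-strand gene *Trub2*, a pseudouridine synthase gene. The share was 10.9% for *Coq8b*, 7.14% for *Coq10b*, 6.91% for *Coq8a*, 4.07% for *Coq6* and 1.24% for *Coq9*. If strand was not used, reads of these stretches cannot be assigned to a single gene, while the exon lengths used above include these stretches. *Trub2* itself rose in the knockdown, with log2 fold changes of 0.31 ± 0.05 in unstimulated DCs (adjusted p = 3.45e-04) and 0.24 ± 0.05 under IFN-β (adjusted p = 0.00307). Its part in the values of *Coq4* was not tested.

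Promoter windows of RefSeq (GRCm38.p6; 250 bases before and 50 after a start site) were found for 8 members, all but *Coq5* and *Coq8b*. The 250 bases upstream are shown for the 3 of these members whose RNA differed with the knockdown in unstimulated DCs: *Coq7*, which was lower, and *Coq3* and *Coq10b*, which were higher. They lie at chr7:118533357-118533606 (minus strand), chr4:21879396-21879645 (plus strand, the first of 2 windows) and chr1:55052520-55052769 (plus strand). They are written 5′ to 3′ in the direction of the gene, and capitals mark CGGAAG or its reverse complement CTTCCG, the core of the ETS motif.
Coq7: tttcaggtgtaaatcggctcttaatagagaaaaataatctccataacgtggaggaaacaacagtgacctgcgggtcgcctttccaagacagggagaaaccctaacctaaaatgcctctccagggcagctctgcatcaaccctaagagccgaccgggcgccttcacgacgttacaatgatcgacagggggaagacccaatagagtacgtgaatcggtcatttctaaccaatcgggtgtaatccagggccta
Coq3: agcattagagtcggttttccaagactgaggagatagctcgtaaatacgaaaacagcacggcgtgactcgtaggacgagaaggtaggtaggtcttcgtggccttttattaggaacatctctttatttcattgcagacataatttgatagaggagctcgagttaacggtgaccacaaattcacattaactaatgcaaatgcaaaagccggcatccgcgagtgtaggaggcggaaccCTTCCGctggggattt
Coq10b: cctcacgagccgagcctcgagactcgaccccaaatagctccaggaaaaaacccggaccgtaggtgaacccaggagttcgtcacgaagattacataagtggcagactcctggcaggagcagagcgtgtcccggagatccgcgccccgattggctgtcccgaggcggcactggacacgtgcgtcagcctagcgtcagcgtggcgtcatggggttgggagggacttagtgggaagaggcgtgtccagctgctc
Motifs of 3 factors that PGC-1 co-activators are known to work with were searched on both strands in the whole windows: GCGCANGCG for NRF1, TCAAGGTCA for estrogen-related receptors and CCGGAAGT for ETS factors such as GABP. The NRF1 letters were in windows of *Coq3* and *Coq8a*, 2 of 8 members, beside 6.25% of all 32851 windows. *Coq3* and *Coq8a* had 2 windows each, so shares of members and shares of windows are not like units here. The receptor letters were in none of the 8 (0.423% of all windows), and neither were the full ETS letters (3.89%). With 1 base fewer at each end, the NRF1 letters CGCANGC were in windows of *Coq2*, *Coq3*, *Coq8a* and *Coq9* (16.4% of all windows) and the ETS letters CGGAAG in those of *Coq3* and *Coq6* (16.9%), while CAAGGTC was again in none (3.96%). In the stretches printed above only *Coq3* held any of these letters, 16 bases before its start site. In the second *Coq3* window the shortened NRF1 and ETS letters overlapped by 2 bases. The windows of *Coq6*, *Coq9* and *Coq10b* also hold exon bases of a gene that starts in the opposite direction (*Fam161b*, *Ciapin1* and E330011M16Rik).

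The first comparison asks how the members differ when *Ppargc1b* is knocked down in unstimulated DCs. Of the 10 members, 2 were higher (*Coq3* and *Coq10b*) and 2 were lower (*Coq5* and *Coq7*), while 12.4% and 11.1% of the 18228 genes tested were called higher and lower. The members did not move in 1 direction: their log2 fold changes ran from -0.45 to 0.30 with a median of -0.10, beside a median of -0.00 over all genes tested.

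**Figure D2:**
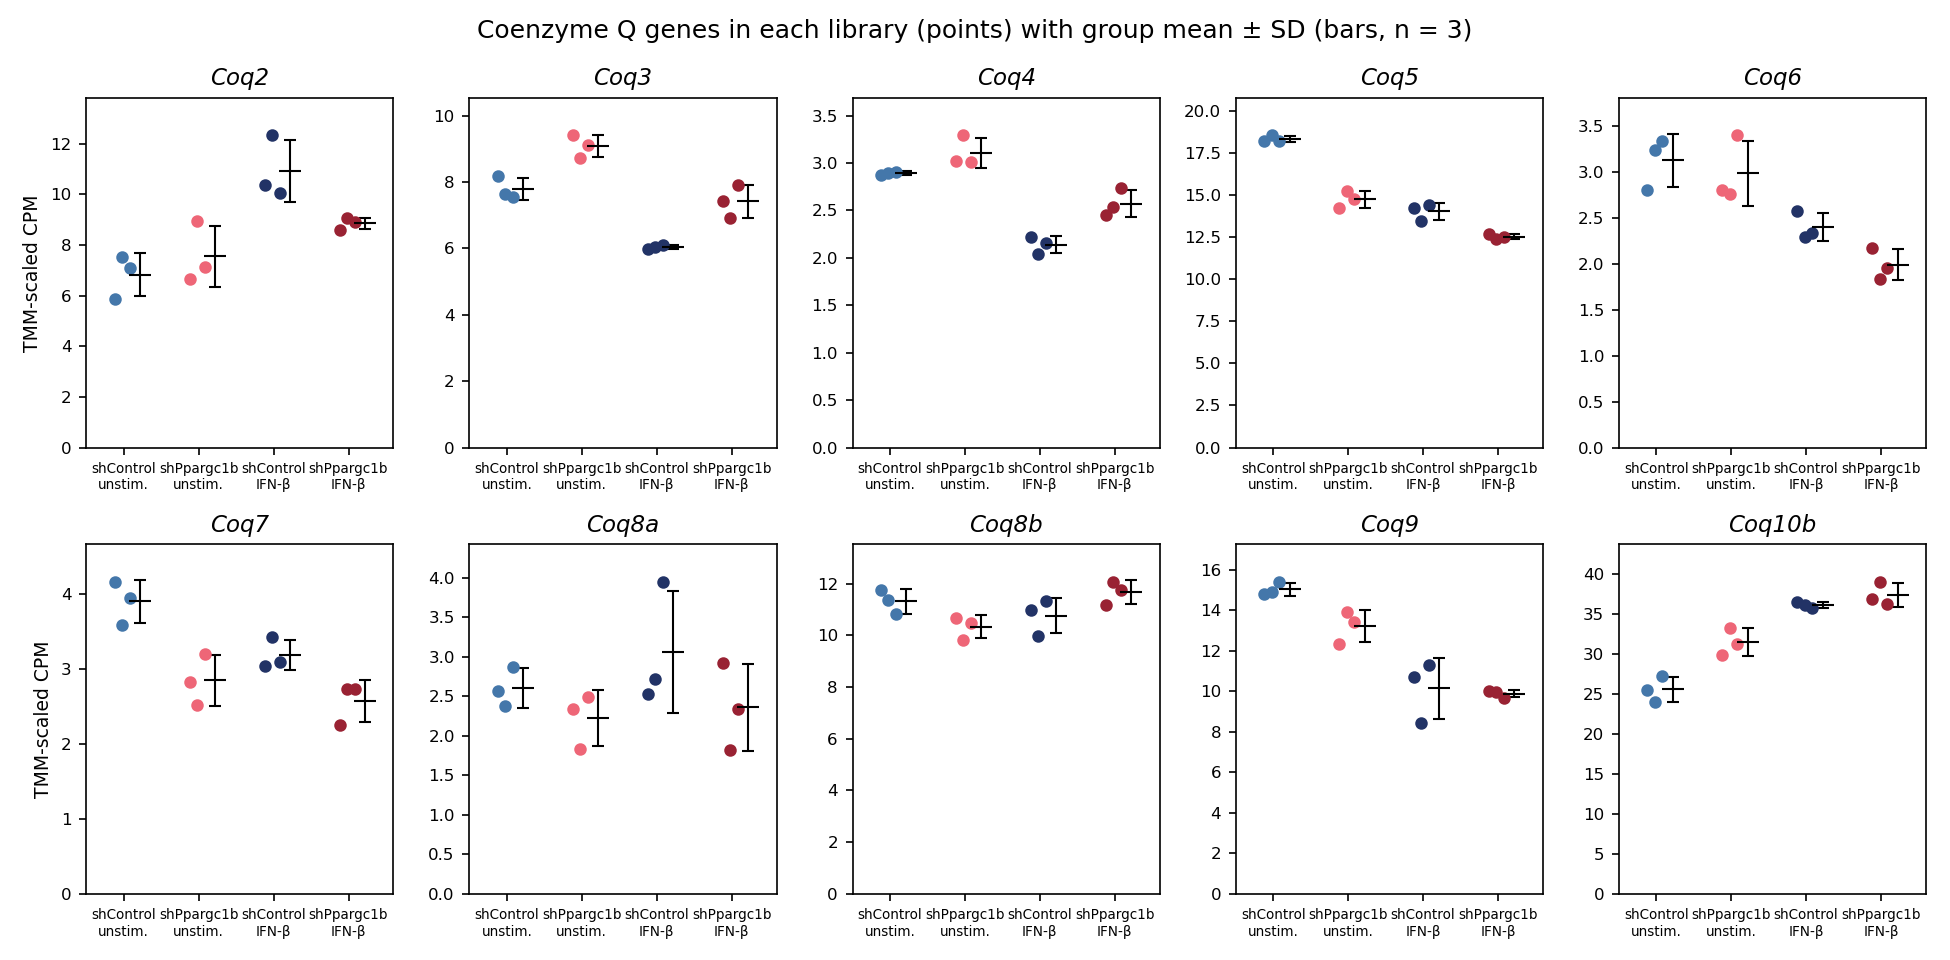
TMM-scaled CPM of the 10 coenzyme Q genes in each of the 12 libraries (points) with the group mean ± SD (bars, n = 3), each y axis from 0. For *Coq5* and *Coq7* every sh*Ppargc1b* unstimulated library lies below every shControl unstimulated library, and for *Coq3* and *Coq10b* above.

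Among the enzymes that modify the ring, *Coq5* was at 18.2, 18.5 and 18.2 CPM in the 3 shControl libraries and at 14.2, 15.2 and 14.8 CPM in the sh*Ppargc1b* libraries. The groups did not overlap, and *Coq5* RNA was at 80.5% of control (log2 fold change -0.31 ± 0.06, adjusted p = 7.48e-04). *Coq7*, the gene of the di-iron hydroxylase of the penultimate step, was at 4.17, 3.59 and 3.95 CPM in shControl and at 2.82, 2.52 and 3.20 CPM in sh*Ppargc1b*. It had the largest fall among the members, to 73.1% of control (log2 fold change -0.45 ± 0.13, adjusted p = 0.0157). This call was lost without shControl unstimulated replicate 1 (adjusted p = 0.0642) and without sh*Ppargc1b* unstimulated replicate 2 (adjusted p = 0.0805).

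*Coq3*, the gene of the O-methyltransferase of the ring, went the other way. It was at 8.17, 7.65 and 7.55 CPM in shControl and at 9.40, 8.73 and 9.13 CPM in sh*Ppargc1b*, a log2 fold change of 0.22 ± 0.08 (adjusted p = 0.0488). Although the groups did not overlap, this value lay at the threshold and the call held under only 3 of 18 alternative settings, with adjusted p from 0.0403 to 0.188. Leaving out a library ended the call for every library except sh*Ppargc1b* IFN-β replicate 2 (adjusted p from 0.0512 to 0.134). *Coq6*, the gene of a flavin-dependent hydroxylase of the ring, was at 2.80, 3.24 and 3.33 CPM in shControl and 2.80, 2.77 and 3.40 CPM in sh*Ppargc1b* and overlapped fully (log2 fold change -0.06 ± 0.13, adjusted p = 0.792).

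Of the genes that serve the assembly, *Coq9*, whose product binds lipid and works with COQ7, was at 14.8, 14.9 and 15.4 CPM in shControl and at 12.4, 13.9 and 13.4 CPM in sh*Ppargc1b*. All 3 sh*Ppargc1b* libraries were below the controls, but the difference of -0.18 ± 0.09 did not pass the test (adjusted p = 0.166). *Coq8b* had the same layout, with 11.8, 11.4 and 10.8 CPM against 10.7, 9.83 and 10.5 CPM (log2 fold change -0.13 ± 0.07, adjusted p = 0.220). *Coq4* lay slightly above the controls in every library and *Coq8a* overlapped, and neither was called (log2 fold changes 0.10 ± 0.11 and -0.23 ± 0.20, adjusted p = 0.556 and 0.470). *Coq2*, at the head of the pathway, was at 5.88 to 7.50 CPM in shControl and 6.64 to 8.92 CPM in sh*Ppargc1b* and was not called either (0.15 ± 0.12, adjusted p = 0.434).

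*Coq10b* showed the clearest rise. Its level was 25.5, 24.0 and 27.2 CPM in shControl and 29.9, 33.3 and 31.3 CPM in sh*Ppargc1b* unstimulated DCs, without overlap and at 123.3% of control (log2 fold change 0.30 ± 0.06, adjusted p = 0.00102). The calls of *Coq5* and *Coq10b* held under all 18 alternative settings and with a further limit of 0.3 on the log2 scale.

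With IFN-β present in both kinds of cells, 1 of the 10 members was called higher in sh*Ppargc1b* DCs (*Coq3*) and 0 were called lower, beside 11.5% and 12.7% of all genes tested. At an unadjusted p under 0.05 by edgeR, 2 members were higher and 3 lower, and DESeq2 called 1 member in each direction. The median log2 fold change of the members was -0.10, and that of all genes was -0.01. *Coq3* was at 5.98, 6.03 and 6.11 CPM in shControl and at 7.42, 6.92 and 7.92 CPM in sh*Ppargc1b* DCs (log2 fold change 0.30 ± 0.08, adjusted p = 0.0126), so its sh*Ppargc1b* libraries were above the controls under both treatments. The call with IFN-β was lost without sh*Ppargc1b* IFN-β replicate 3 (adjusted p = 0.0798) and when the filter was relaxed to any gene with 1 count or more (adjusted p = 0.0588).

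*Coq5* was at 14.2, 13.4 and 14.4 CPM in shControl and 12.7, 12.4 and 12.5 CPM in sh*Ppargc1b* with IFN-β. The groups did not overlap, and the difference of -0.16 ± 0.06 just missed the threshold (adjusted p = 0.0522), falling below it without shControl IFN-β replicate 2 (adjusted p = 0.0332) and with DESeq2 size factors (adjusted p = 0.0462). *Coq7* again lay lower in every library, at 2.25, 2.73 and 2.73 CPM against 3.05, 3.42 and 3.10 CPM, and was not called (log2 fold change -0.31 ± 0.13, adjusted p = 0.104). *Coq2* was at 8.61, 9.04 and 8.91 CPM against 10.4, 12.3 and 10.1 CPM, again without overlap and without a call (-0.30 ± 0.12, adjusted p = 0.0792). That call was reached with DESeq2 (adjusted p = 0.0495), with a term for runs of library codes (adjusted p = 0.0168) and with the 2 groups fitted alone (adjusted p = 0.0456).

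For *Coq10b* no difference was detected, with 36.8, 39.0 and 36.3 CPM in sh*Ppargc1b* and 36.4, 36.2 and 35.8 CPM in shControl DCs with IFN-β. The 95% interval of its log2 fold change, -0.07 to 0.17, did not reach the 0.30 seen without IFN-β, although this does not test the difference between the treatments. The other members were not called: *Coq4* 0.27 ± 0.11 (adjusted p = 0.107), *Coq6* -0.27 ± 0.14 (0.180), *Coq8a* -0.39 ± 0.20 (0.178), *Coq8b* 0.12 ± 0.07 (0.278) and *Coq9* -0.04 ± 0.09 (0.799). *Coq8a* had the largest SE of the members, with 2.53, 2.72 and 3.95 CPM in shControl and 2.92, 1.82 and 2.34 CPM in sh*Ppargc1b* DCs with IFN-β.

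Between IFN-β and unstimulated DCs more of the members were called than with the knockdown, and so were more of all genes. In shControl DCs 2 of 10 rose and 5 fell after 6 h, while 23.7% and 24.6% of all genes tested were called higher and lower. The median log2 fold change of the members was -0.33 and that of all genes -0.03. In sh*Ppargc1b* DCs 1 rose and 4 fell, with 21.4% and 21.2% of all genes called, a median of -0.19 over the members and of -0.02 over all genes. With library totals in place of TMM the median of all genes went to -0.27 in shControl and -0.22 in sh*Ppargc1b* DCs, and the share of higher genes among all called from 49.0% to 23.9% and from 50.2% to 23.7%, and on that scale 2 members rose and 7 fell in shControl and 0 rose and 6 fell in sh*Ppargc1b* DCs. The 2 IFN-β comparisons share no library with each other, but each shares libraries with both knockdown comparisons.

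The members that rose were *Coq2*, at the head of the pathway, and *Coq10b*. *Coq2* went from 5.88, 7.50 and 7.09 CPM unstimulated to 10.4, 12.3 and 10.1 CPM with IFN-β in shControl DCs, 159.7% of the unstimulated level and the largest change of any member (log2 fold change 0.68 ± 0.12, adjusted p = 2.12e-04). In sh*Ppargc1b* DCs it went from 6.64, 8.92 and 7.11 to 8.61, 9.04 and 8.91 CPM, where the groups overlapped and no call was made (0.23 ± 0.12, adjusted p = 0.146). Without sh*Ppargc1b* unstimulated replicate 2, which held the highest of these unstimulated values, that change was 0.37 and was called (adjusted p = 0.0212), and it was also called with the term for runs of library codes (0.24, adjusted p = 0.0368). *Coq10b* rose in both kinds of cells, to 141.4% of unstimulated in shControl (0.50 ± 0.06, adjusted p = 2.32e-06) and to 118.7% in sh*Ppargc1b* DCs (0.25 ± 0.06, adjusted p = 0.00205). The latter call was lost with library totals (0.04, adjusted p = 0.534).

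Of the 4 ring-modifying enzymes, *Coq3*, *Coq5* and *Coq6* fell in both kinds of cells. *Coq5* dropped to 76.6% of unstimulated in shControl (-0.38 ± 0.06, adjusted p = 3.77e-05) and to 84.9% in sh*Ppargc1b* DCs (-0.24 ± 0.06, adjusted p = 0.00353), and *Coq3* to 77.6% (-0.37 ± 0.08, adjusted p = 0.00115) and 81.7% (-0.29 ± 0.08, adjusted p = 0.00620). For both genes all IFN-β libraries lay below all unstimulated libraries of the same cells. *Coq6* fell to 2.57, 2.29 and 2.34 CPM in shControl (-0.38 ± 0.13, adjusted p = 0.0241) and to 2.17, 1.84 and 1.96 CPM in sh*Ppargc1b* DCs (-0.59 ± 0.13, adjusted p = 0.00200). The *Coq6* call in shControl was lost without shControl unstimulated replicate 2 or 3 (adjusted p = 0.0603 and 0.0695) and without shControl IFN-β replicate 2 or 3 (0.0934 and 0.0839), and when any gene with 1 count or more was tested (0.0780). *Coq7* was not called in either comparison (-0.29 ± 0.13, adjusted p = 0.0692, and -0.15 ± 0.13, adjusted p = 0.402), although without shControl unstimulated replicate 2 the former was called (adjusted p = 0.0493). With library totals it was called lower in both (-0.53, adjusted p = 0.00178, and -0.35, adjusted p = 0.0315).

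Among the assembly genes, *Coq9* fell furthest, from 14.8, 14.9 and 15.4 to 10.7, 8.43 and 11.3 CPM in shControl DCs (-0.56 ± 0.09, adjusted p = 9.22e-05) and from 12.4, 13.9 and 13.4 to 10.0, 9.95 and 9.67 CPM in sh*Ppargc1b* DCs (-0.42 ± 0.09, adjusted p = 0.00146). The groups were separate in both kinds of cells. *Coq4* fell in shControl, from 2.87 to 2.91 CPM down to 2.04 to 2.23 CPM (-0.44 ± 0.11, adjusted p = 0.00449), and was not called in sh*Ppargc1b* DCs (-0.27 ± 0.11, adjusted p = 0.0580), where library totals made a call (-0.48, adjusted p = 0.00172). *Trub2*, which shares exon bases with *Coq4*, was not called in either comparison (-0.02 ± 0.05 and -0.09 ± 0.05). The kinase-like genes were not called by edgeR with TMM scaling in any comparison: with IFN-β, *Coq8a* differed by 0.25 ± 0.20 in shControl and 0.08 ± 0.20 in sh*Ppargc1b* DCs, and *Coq8b* by -0.07 ± 0.07 and 0.18 ± 0.07 (adjusted p = 0.327, 0.781, 0.448 and 0.0612). For *Coq8b* in sh*Ppargc1b* DCs the call was reached without shControl IFN-β replicate 2 (adjusted p = 0.0498), with DESeq2 (adjusted p = 0.0498) and with DESeq2 size factors (adjusted p = 0.0490), and in shControl DCs *Coq8b* was called lower with library totals (-0.31, adjusted p = 0.00158).

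**Figure D3:**
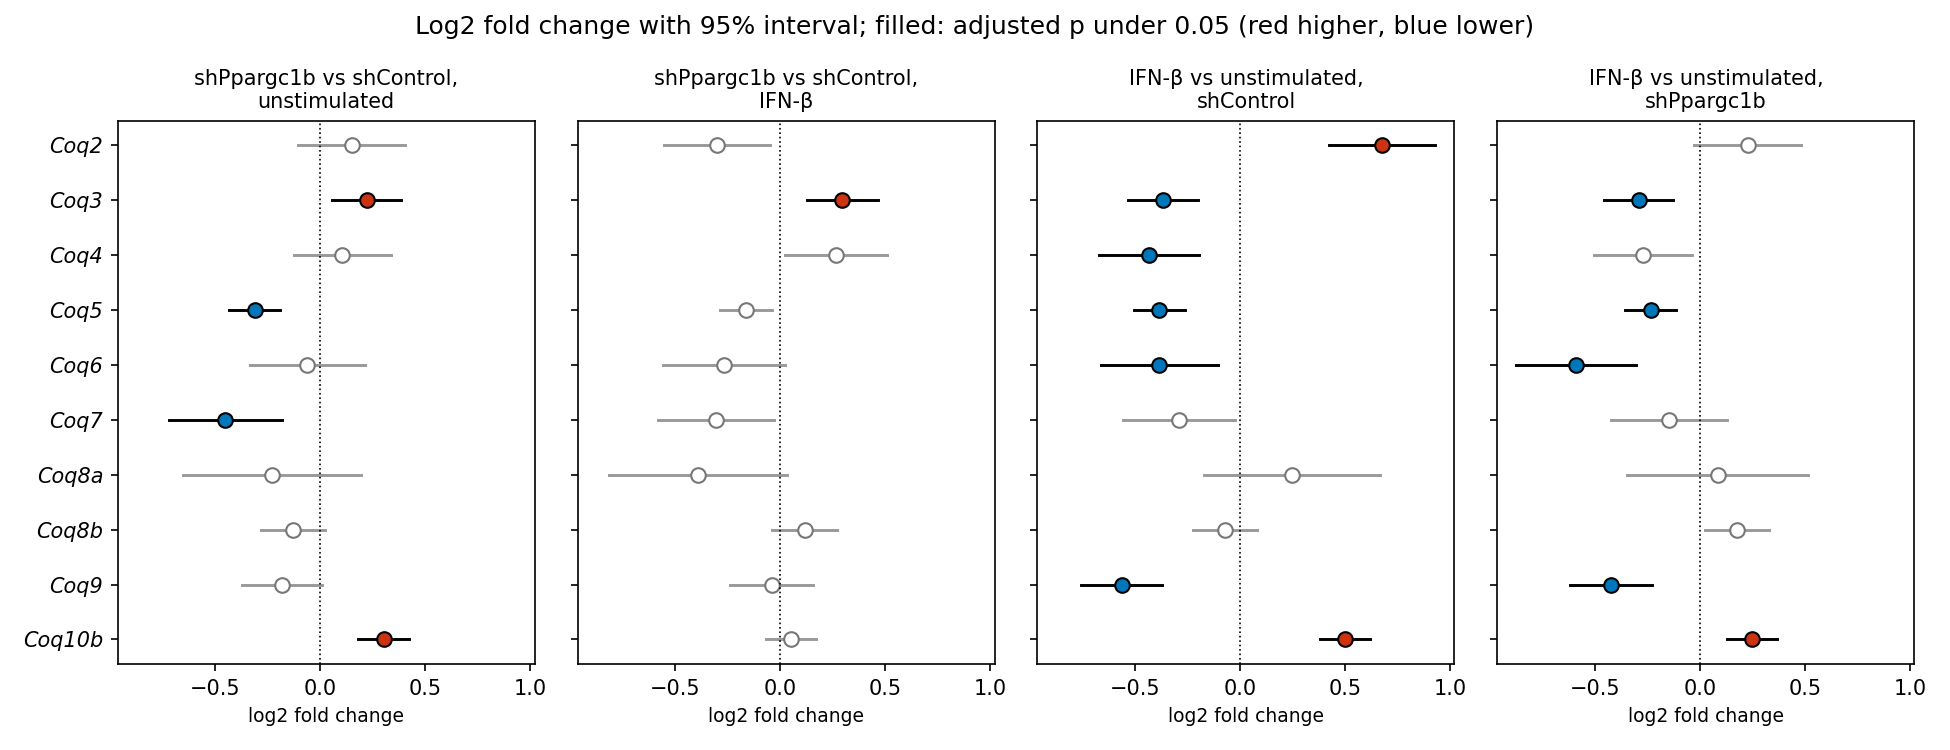
Log2 fold change of each coenzyme Q gene with its 95% interval in the knockdown and IFN-β comparisons, filled where the adjusted p is under 0.05 (red higher, blue lower). The knockdown panels hold calls in both directions without IFN-β and 1 call with it, and the IFN-β panels hold 5 lower members in shControl and 4 in sh*Ppargc1b* DCs.

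Whether the knockdown effect differed between treatments was tested as an interaction, in which the effect in unstimulated DCs was subtracted from the effect in IFN-β-treated DCs. Of the 10 members 0 were called in either direction, by edgeR or by DESeq2, beside 0.0603% of genes called higher and 0.669% called lower (8.27% of calls were higher, and 20.2% with library totals). At an unadjusted p under 0.05 there were 1 higher and 2 lower members. *Coq10b* had the smallest p, with an interaction of -0.25 ± 0.08 (unadjusted p = 0.00628, adjusted p = 0.196), so its knockdown effects of 0.30 and 0.05 were not shown to differ. *Coq2* had the largest, -0.45 ± 0.17 (adjusted p = 0.321), with knockdown values of 0.15 without and -0.30 with IFN-β. Over the alternative settings its interaction ran from -0.52 to -0.29 and its knockdown value without IFN-β from 0.010 to 0.23, with 0 calls. *Coq8b*, with -0.13 and 0.12, had an interaction of 0.25 ± 0.10 (adjusted p = 0.393).

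The other genes of coenzyme Q supply and use were taken as 4 lists. Their knockdown counts stand beside 12.4% higher and 11.1% lower of all genes tested without IFN-β, and 11.5% and 12.7% with it. Of 8 tested partners of synthesis (tail and ring enzymes, transport and regulation, of 10 listed), 0 were higher and 1 was lower with the knockdown in unstimulated DCs, and 0 were called in either direction with IFN-β, with medians of -0.07 and -0.06 on the log2 scale. The gene that fell was *Stard7*, which encodes a lipid transfer protein needed for coenzyme Q transport and synthesis, from 42.2 ± 1.99 to 31.5 ± 2.19 CPM (SD, n = 3; log2 fold change -0.42 ± 0.07, adjusted p = 3.61e-04), and with IFN-β it was at -0.15 ± 0.07 (adjusted p = 0.156). That value was called without sh*Ppargc1b* IFN-β replicate 1 (-0.25, adjusted p = 0.0140). *Coq10a*, the paralog of *Coq10b*, was not called in either knockdown comparison, with log2 fold changes of 0.02 ± 0.06 and -0.06 ± 0.06 (adjusted p = 0.890 and 0.508). Against unstimulated DCs, *Coq10a* was lower with IFN-β in shControl (-0.20 ± 0.06, adjusted p = 0.00932) and in sh*Ppargc1b* DCs (-0.28 ± 0.06, adjusted p = 0.00110).

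In the mevalonate pathway, which supplies the tail, 1 of 9 genes was higher and 0 lower in unstimulated DCs, and 1 was higher and 1 lower with IFN-β, with medians of 0.07 and -0.08. These counts lie near the shares of all genes, 12.4% higher and 11.1% lower without IFN-β and 11.5% and 12.7% with it. *Idi1*, the isopentenyl-diphosphate isomerase gene, rose in unstimulated DCs (0.25 ± 0.06, adjusted p = 0.00669) and under IFN-β (0.20 ± 0.06, adjusted p = 0.0265). The latter call was lost without shControl IFN-β replicate 2 or 3 and without sh*Ppargc1b* IFN-β replicate 1 or 3 (adjusted p from 0.0973 to 0.145), and when any gene with 1 count or more was tested (0.0712). *Mvd*, the mevalonate diphosphate decarboxylase gene, fell with IFN-β present (-0.25 ± 0.06, adjusted p = 0.00901) and was at -0.16 ± 0.06 without it (adjusted p = 0.0822), where leaving out shControl unstimulated replicate 2 made a call (adjusted p = 0.0457), as did the term for runs of library codes (adjusted p = 0.0343).

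Genes whose products use coenzyme Q made up the last lists. Of 10 genes of enzymes that reduce ubiquinone outside complex I, 1 was higher and 7 were lower with the knockdown in unstimulated DCs, and 0 were higher and 7 lower with IFN-β, with medians of -0.34 and -0.33. The shares of all genes were 12.4% higher and 11.1% lower without IFN-β, and 11.5% and 12.7% with it. Subunit genes of complex II, a single enzyme, are counted separately in this list, and each was lower under both treatments. *Aifm2*, which encodes the ubiquinone reductase FSP1, fell from 27.5 ± 0.636 to 20.1 ± 1.58 CPM without IFN-β (-0.46 ± 0.07, adjusted p = 2.36e-04) and from 41.1 ± 2.88 to 26.3 ± 2.11 CPM with it (-0.65 ± 0.07, adjusted p = 1.03e-05). *Etfdh*, the gene that feeds electrons of fatty acid oxidation into ubiquinone, fell by 0.46 ± 0.05 and by 0.39 ± 0.05 on the log2 scale (adjusted p = 9.99e-06 and 5.70e-05). The complex II genes *Sdha* and *Sdhd* fell under both treatments too, with log2 fold changes from -0.53 to -0.41.

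Complex III, which oxidizes ubiquinol, had 0 higher and 9 lower of its 9 nuclear subunit genes in unstimulated DCs and 0 higher and 7 lower with IFN-β, with medians of -0.37 and -0.26. Among all genes 12.4% were higher and 11.1% lower without IFN-β, and 11.5% and 12.7% with it. *Uqcrh*, the hinge subunit gene, went from 62.1 ± 4.35 to 41.1 ± 1.51 CPM without IFN-β (-0.60 ± 0.06, adjusted p = 2.65e-06) and from 57.1 ± 3.67 to 40.4 ± 0.467 CPM with it (-0.50 ± 0.06, adjusted p = 1.73e-05). *Cyc1*, *Uqcrfs1* and *Uqcrc2*, of the catalytic and core subunits, fell by 0.40 to 0.43 without and by 0.26 to 0.35 with IFN-β. Set beside these, the coenzyme Q genes had 2 higher and 2 lower of 10 without IFN-β and 1 higher and 0 lower of 10 with it. The difference between the lists was not tested. The 2 knockdown comparisons share no library.

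**Figure D4:**
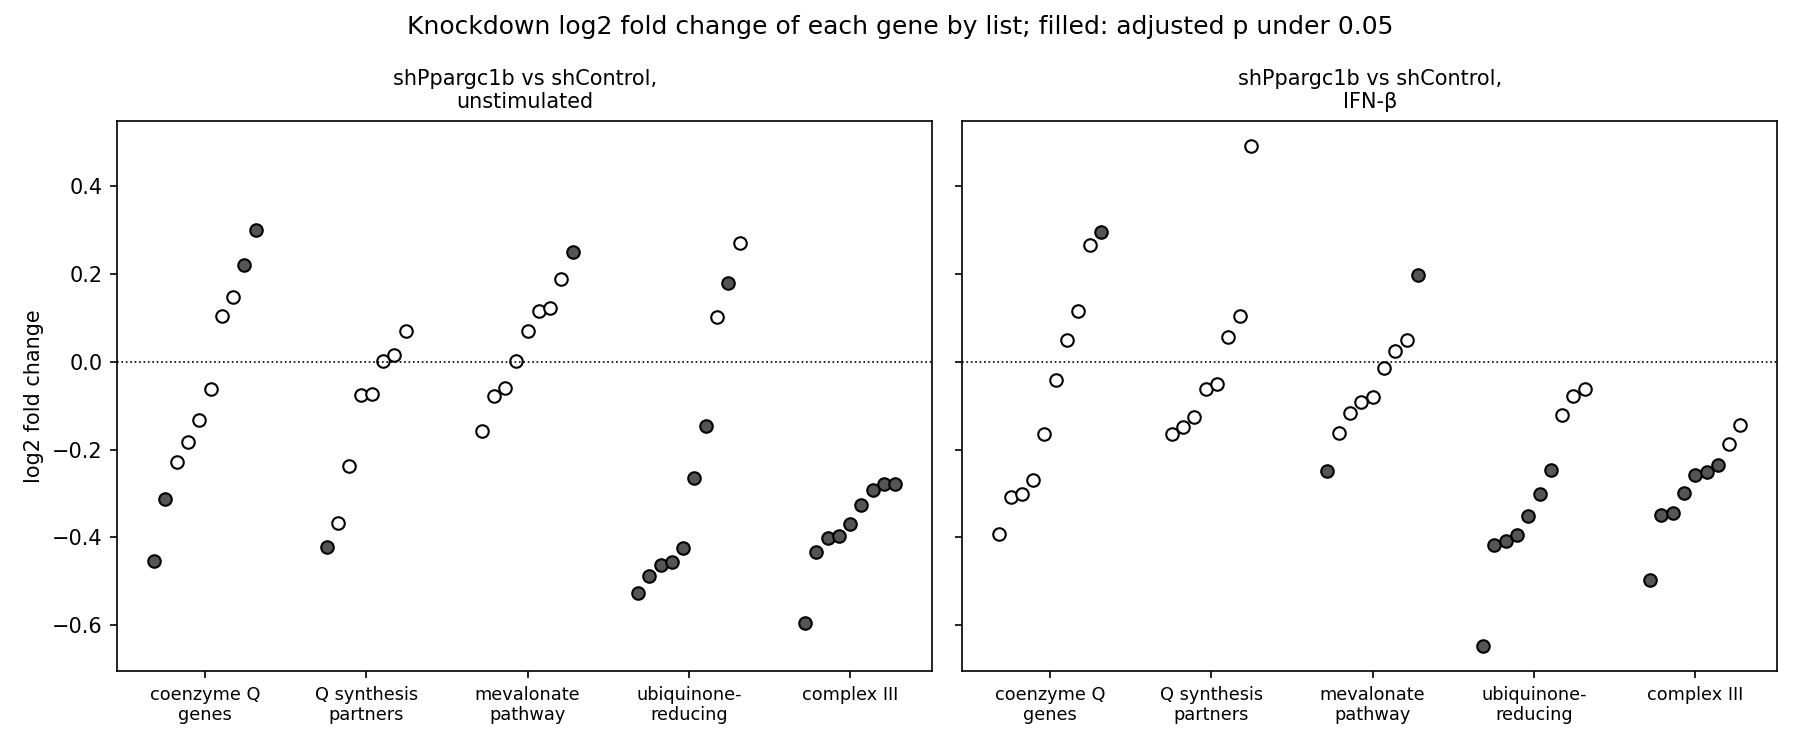
Knockdown log2 fold change of each gene (points, sorted within a list) for the coenzyme Q genes and 4 related lists, without IFN-β (left) and with it (right), filled where the adjusted p is under 0.05. The coenzyme Q genes spread over both sides of 0 with medians of -0.10, while all 9 complex III genes lie below 0 in both panels.

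For the effect of IFN-β the lists are set beside the 23.7% higher and 24.6% lower of all genes in shControl and the 21.4% and 21.2% in sh*Ppargc1b* DCs. In shControl DCs the partners had 1 higher and 4 lower of 8, the mevalonate genes 2 higher and 5 lower of 9, the genes of ubiquinone-reducing enzymes 3 higher and 3 lower of 10 and complex III 0 higher and 4 lower of 9. In sh*Ppargc1b* DCs the same lists had 1 and 3, 0 and 6, 3 and 5, and 0 and 2. The medians of the partners (-0.34 and -0.17) and of the coenzyme Q genes (-0.33 and -0.19) are given side by side.

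*Coq2*, *Coq6* and *Coq9* had the widest range of group means, 0.68, 0.64 and 0.60 on the log2 scale. For these, the genes with the most similar profile were found among 8751 genes by the root mean square difference of centred log2 CPM over the 12 libraries. For *Coq9* they were *Acap3* (0.0732), *Rcan3* (0.0751) and *Def6* (0.0767), for *Coq6* they were *Aaas* (0.0851), *Hsd17b10* (0.0931) and *Echdc1* (0.103), and for *Coq2* they were *Atm* (0.116), *Mgat4a* (0.120) and *Fam3c* (0.122). None of these genes is a member or in any of the 4 lists. The profiles share their libraries and their scaling, so likeness here is a description.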

How the data were processed

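RNA was measured by RNA-seq of 12 libraries. The authors depleted ribosomal RNA, trimmed read pairs with Trim Galore and mapped them to mm10 (GRCm38) with STAR, and the deposited values were raw counts per GENCODE gene, not normalized and not pooled. Submitters' processing notes give STAR 2.7.8a and Trim Galore 0.6.0. Only uniquely mapped reads are counted by this method, and strand use is not given in the sources used here. All value columns were mapped to samples, and no pair of libraries was identical.

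The tool was edgeR 4.0.16 under R 4.3.3: filterByExpr (minimum count 10, minimum total 15) kept 18228 genes with 99.96% of counts, TMM scaled library sizes, and all 12 libraries entered a quasi-likelihood model with a term for each group. Two-sided F-tests gave p-values, Benjamini-Hochberg adjustment covered every tested gene, and calls had an adjusted p under 0.05. Unless DESeq2 is named, adjusted p-values are from edgeR. Fold changes carry the SE derived from the F statistic and CPM values are TMM-scaled. The script was tested on simulated data. Gene positions are from GENCODE M21 (GRCm38).

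Members and lists were chosen with earlier results of these data known. Named were all members, up to 4 genes per list with the largest knockdown change among those called, the 3 genes most like each of the 3 most variable members, and *Ppargc1b*. Markers, *Trub2* and *Coq10a* were named beside results they bear on, *Coq10a* after its values were seen. Alternatives were DESeq2 size factors, library totals, all genes with at least 1 count, DESeq2 1.42.0, fitting only the 2 groups compared, a term for runs of library codes, a further limit of 0.3 on the log2 scale, and leaving out each library.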

Additional observations from a re-analysis of the deposited data

Results flagged for a closer look

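No coenzyme Q gene met a rule for a closer look. In the related lists, the knockdown effect on *Gpd2*, the mitochondrial glycerol-3-phosphate dehydrogenase gene, differed between treatments: it was 0.18 on the log2 scale without IFN-β (adjusted p = 0.00713) and -0.12 with it (adjusted p = 0.0550), with every library of sh*Ppargc1b* above every control library in the former and below in the latter, and the interaction was -0.30 ± 0.06 (edgeR, adjusted p = 0.0359). Leaving out a library put the adjusted p of that interaction above the threshold for 8 of the 12 libraries (as high as 0.139, without shControl unstimulated replicate 3), as did scaling by library totals (0.0701). The uncalled *Gpd2* value with IFN-β was called under 6 of 18 alternatives: with DESeq2 size factors (0.0450), DESeq2 (0.0392) and the term for runs of library codes (0.0382), and without shControl IFN-β replicate 1 or 3 or sh*Ppargc1b* IFN-β replicate 2 (0.0312 to 0.0467). *Ggps1*, the geranylgeranyl diphosphate synthase gene, had the same layout of libraries, with 0.12 without IFN-β and -0.091 with it, and its interaction of -0.21 did not pass the test (adjusted p = 0.193).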

How the results depend on the processing

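The labels give no replicate numbers to pair libraries by. Deviations from the group means had a median correlation of 0.284 (lowest -0.134) between libraries of the same run of 4 consecutive codes, against -0.117 between runs, and a term for the runs was tried. The deviations within a group sum to 0, so positive values within runs bring negative ones between runs, and the latter are no independent baseline. With it, uncalled values became calls for *Coq2* knockdown with IFN-β (adjusted p = 0.0168), *Coq2* with IFN-β in sh*Ppargc1b* DCs (0.0368), *Mvd* (0.0343) and *Ggps1* (0.0498) knockdown without IFN-β and *Gpd2* knockdown with IFN-β (0.0382).

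The 0.3 limit on the log2 scale bears on calls only and ended those of *Coq3* in both knockdown comparisons and of *Coq3*, *Coq5* and *Coq10b* with IFN-β in sh*Ppargc1b* DCs. Over the other 18 alternatives, 12 of 17 member calls held throughout, 281 of 306 values kept their direction and call, 25 lost the call and 0 reversed. In unstimulated DCs, 1 higher member was left with library totals, with all genes with at least 1 count, with DESeq2, with only the 2 groups fitted and with the 0.3 limit (leaving out a library gave 1 to 2 higher and 1 to 2 lower). With IFN-β, the knockdown gave 0 higher members with the 0.3 limit and with all genes with at least 1 count, and 1 lower with DESeq2 size factors, DESeq2, only the 2 groups fitted and the run term (leaving out a library gave 0 to 1 in each direction). IFN-β in sh*Ppargc1b* DCs gave 0 higher with the 0.3 limit and with library totals, 2 higher with DESeq2 size factors, DESeq2 and the run term (1 to 2 on leaving out a library), and 2 lower with the 0.3 limit.

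TMM factors were 1.07 to 1.09 unstimulated and 0.914 to 0.941 with IFN-β. With IFN-β in sh*Ppargc1b* DCs, library totals put *Coq10b* at 0.04 (adjusted p = 0.534), *Coq8a* at -0.12 and *Coq8b* at -0.027 (from 0.08 and 0.18). The interaction had 11 higher and 122 lower genes, against 17 and 67 with library totals, 103 and 422 with all genes with at least 1 count, 84 and 365 with DESeq2 and 86 and 339 with the run term; the share of higher calls was 8.27%, 20.2%, 19.6%, 18.7% and 20.2%. Uncalled values that changed sign on leaving out a library were *Coq8a* with IFN-β in sh*Ppargc1b* DCs (-0.092 to 0.25), the *Coq8a* interaction (-0.36 to 0.060), *Coq8b* with IFN-β in shControl (-0.12 to 7.14e-05) and *Coq9* knockdown with IFN-β (-0.17 to 0.037). The cause of these changes was not tested. *Coq4*, *Coq6*, *Coq7* and *Coq8a* had 103 to 281 counts per library and an SE of 0.11 to 0.20.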
